A study of Bos taurus with 12 samples.

Results

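Solute carriers are the membrane proteins that move amino acids, peptides, sugars, nucleosides, fatty acids, metals, vitamins and inorganic ions across the plasma membrane and the membranes of organelles. They are numbered by family, so that SLC36A4 is the fourth member of family 36. Members were the rows of the deposited tables whose gene symbol starts with SLC, a family number, the letter A and a member number, with SLC4A4 and SLC6A6 left out. This rule uses no measured value. It gave 1963 of 196275 listed CpG cytosines (sites), assigned to 188 of the 11830 gene symbols with a listed site, and 12 of 1227 listed windows of 500 bases (tiles), assigned to 6 genes. The rule also takes in SLC4A1AP, which encodes an adaptor protein rather than a carrier (7 sites), and the pseudogene SLC22A20P (1 site).

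DNA from blood of 12 dairy cows kept under common farm conditions was read by enzymatic methylation sequencing, in which cytosines without a methyl or hydroxymethyl group are turned into uracil and read as thymine. The Mastitis Susceptible Group (MSG, 6 cows) was culled within 1 year of sampling for complications of mastitis, an inflammation of the udder, that had not been identified when the blood was drawn. The Mastitis Resilient Group (MRG, 6 cows) remained in the herd over that year and was matched to MSG on the distribution of ages. The labels name no strain, treatment, exact age or batch, and blood is a mixture of cell types whose proportions were not given, so a change in cell composition and a change within cells cannot be told apart. The comparison addresses whether methylation in blood differed ahead of culling. Values are percent methylation per cow: the share of reads that kept a cytosine at a site, or over a tile.

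In mammals most CpG cytosines are methylated, and methylation near a start site often goes with a silent gene, whereas methylation inside a gene does not. Blood cells depend on carriers in several ways: red cells carry chloride-bicarbonate exchangers and urea channels, activated leukocytes raise the uptake of amino acids, glucose and nucleosides, and macrophages export iron. In the lactating udder, carriers supply the epithelium with amino acids, glucose and fatty acids. Methylation alone does not show whether a carrier was expressed, and no RNA was measured here.

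The authors had listed rows only where the groups differed: the smallest absolute difference in the authors' deposited table was 25.03 percentage points among these sites and the largest q-value was 0.00995. A difference at a listed row is therefore given by the selection, and the tests below describe how it stands against the spread between cows. Depth per cow was not used, since no depth column could be tied to a cow by name.

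The names table holds 329 protein-coding carrier symbols of this form, and 186 of them (56.5%) had a listed site, beside 51.6% of all named protein-coding genes. Sites were unevenly spread over the 188 genes. The median was 5 sites per gene, 38 genes had a single site, and the 10 genes with most sites held 576 (29.3%). The authors' annotation names the nearest gene and counts up to 3 kb from a start as promoter. Where a gene has several listed models, each distance is from the start of the model the authors assigned to that row, and the gene position printed here is that of the model with most sites. Introns held 832 sites (42.4%), distal intergenic sequence 913 (46.5%), promoters 150 (7.64%), exons 56 (2.85%) and 3' untranslated regions 11. Over all listed sites the shares were 34.9% in introns, 58.2% in distal sequence, 5.44% in promoters and 0.943% in exons. All listed sites include some without a gene symbol, which could not be members. Of the 144399 sites with another symbol, 56937 were in introns, 76865 in distal sequence, 8253 in promoters and 1530 in exons. Only 702 carrier sites (35.8%) lay inside the gene they were assigned to, and 58 of the 188 genes had none inside, so many values describe sequence around a carrier gene.

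Methylation was higher in MSG at 1027 of the 1963 sites (52.3%) and lower at 936, against 52.7% higher over all listed sites. Without sites at which a cow stood at exactly 0, 49.6% of the 421 remaining carrier sites were higher, against 57.3% of all such sites. In promoters 64 of 150 sites were higher (42.7%, all listed promoter sites 54.4%), and in distal sequence 505 of 913 (55.3%, all listed 52.8%). These shares are descriptions: neighbouring sites share reads, cows and often a run of like values, and no test was made of them. Counted by gene, 87 genes had mostly higher and 91 mostly lower sites, and 10 were tied (48.9% of the untied higher, other genes 54.3%). The plot of site counts by gene shows some genes that leaned strongly one way and others that were split. Of the 61 genes with 10 or more sites, 5 had all sites higher, 4 had all lower and 52 had both directions. This count was not made over all genes.

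**Figure D1:**
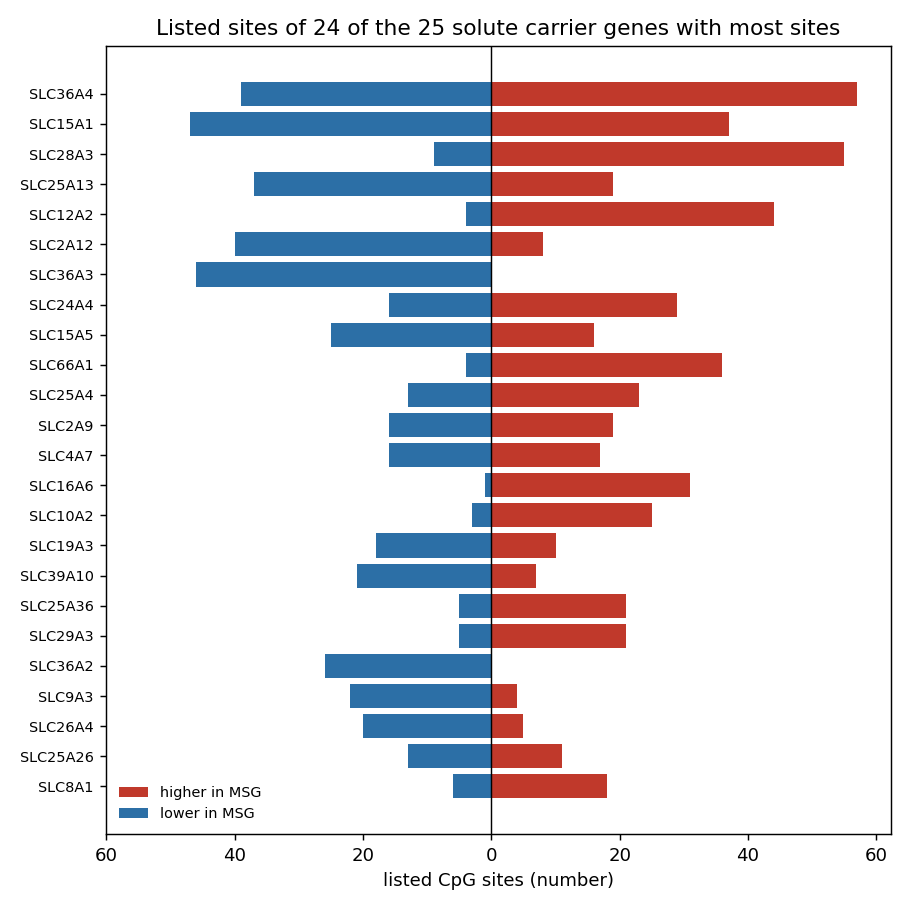
Number of listed CpG sites (x axis) of 24 of the 25 solute carrier genes with most sites (y axis), those higher in MSG drawn to the right in red and those lower in MSG to the left in blue. SLC36A4 leads with 57 higher and 39 lower sites, and all 46 sites of SLC36A3 and all 26 of SLC36A2 are lower.

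Across cows, the mean over all carrier sites was 56.3% ± 2.08 in MSG (SD, n = 6, from 53.0% to 59.6%) and 54.46% ± 1.495 in MRG (n = 6, from 52.6% to 56.7%). The ranges overlap. At an adjusted p under 0.05, limma passed 0 of the 1963 carrier sites (lowest adjusted p = 0.0781), as was true of all listed sites (0%). Since no listed site passed, this 0 says nothing particular about carrier sites. At an unadjusted limma p under 0.05 the count was 966 (49.2%) beside 51.9% of all listed sites. The exact permutation test passed 0 sites after adjustment, as for all listed sites (0%). Its smallest possible p is 0.00216, which leaves little room for a call after adjustment over 196275 sites, so this 0 says little. At an unadjusted permutation p under 0.05 the count was 616 (31.4%) beside 35.5% of all listed sites. The median absolute difference was 32.4 points and the median SD within a group 26.8 points. Without MSG replicate 6 limma passed 2 sites, both of SLC6A13, a transporter of GABA and taurine, and both higher in MSG (adjusted p = 0.0475 each), among 74 of all 196275 sites.

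For each gene the listed sites with a value in all 12 cows were averaged per cow, both directions together, which gave 177 testable genes. The median absolute difference of these gene means was 25.5 points, against 24.2 points over all genes. None of the 177 passed limma's test (lowest adjusted p = 0.0799), beside 1 of 11074 genes in all (0.00903%), and 61 (34.5%) had an unadjusted p under 0.05 beside 38% of all genes. The exact permutation test passed 0 after adjustment, as for all genes (0%), and 54 before it (30.5%, all genes 31.7%). The smallest p it can give limits the adjusted count here as well. A call appeared on leaving out either of 2 cows: SLC22A18 without MSG replicate 6 (adjusted p = 0.00798, 13 of all 11074 genes called) and SLC12A9, a cation-chloride family member, without MRG replicate 2 (adjusted p = 0.0429, 12 of all genes called).

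**Figure D2:**
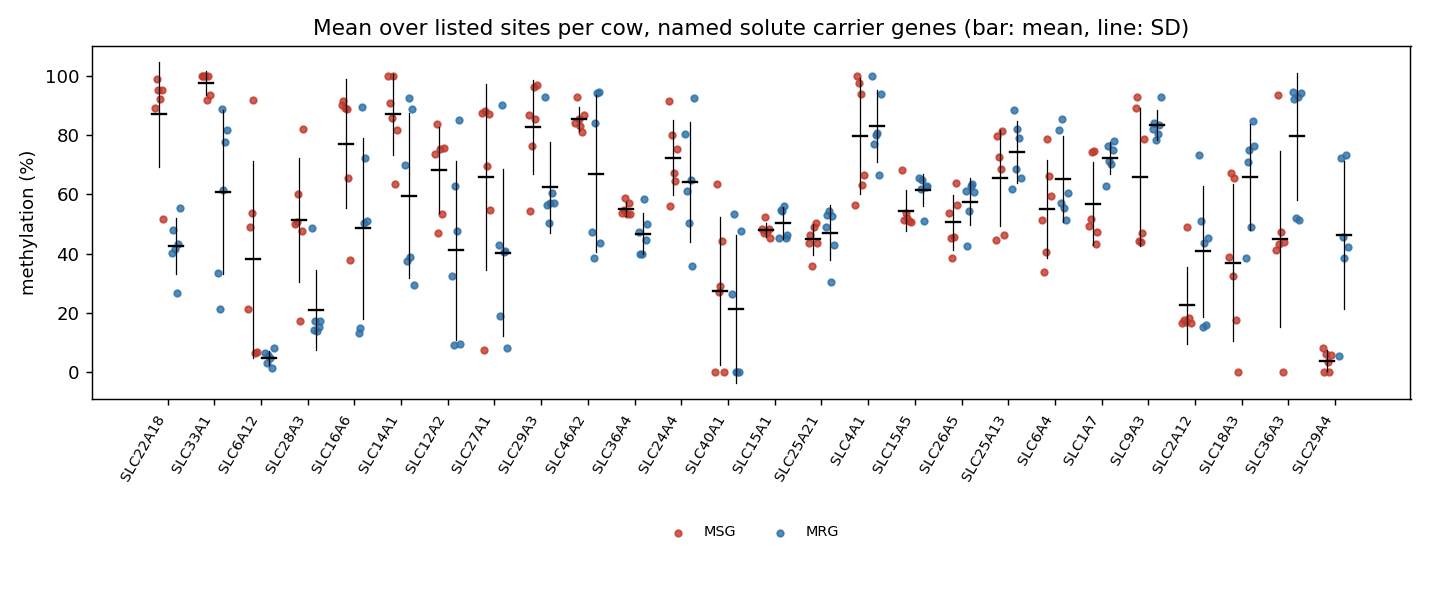
Mean methylation (y axis, percent) over the listed sites of 26 named genes (x axis, ordered by the difference), 1 point per cow, MSG in red and MRG in blue, with the group mean (horizontal bar) and SD (vertical line, n = 6 per group). SLC22A18 and SLC33A1 stand at the upper end and SLC29A4 and SLC36A3 at the lower end, and the groups overlap in most genes. SLC33A1 rests on 1 complete site, chosen for its lack of overlap.

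Classes were assigned by family number, so a class can hold members with another substrate. The serotonin transporter SLC6A4, for example, is counted under amino acids. Amino acid carriers made up the largest class, with 37 genes and 448 sites, of which 209 were higher and 239 lower in MSG. Of the 35 with a testable gene mean none passed limma's adjusted test and 14 had an unadjusted p under 0.05, a share near the 38% of all genes. The SLC36 family of amino acid carriers held the gene with most sites of all members. SLC36A4 (gene on chromosome 29, 1701573 to 1743386) had 96 sites over 180 kb, 88 of them distal, with 57 higher and 39 lower. Its gene mean ran from 53.2% over a median of 54.1% to 58.8% in MSG, and from 39.9% over 46.0% to 58.4% in MRG (limma adjusted p = 0.213). Because sites of opposite direction were averaged, that near balance hides wide differences: the higher sites averaged 81.5% ± 11.2 in MSG and 45.8% ± 30.7 in MRG, and the lower ones 11.5% ± 16.2 and 47.8% ± 33.6 (SD, n = 6 each). These 4 averages are sorted by direction and carry no test.

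SLC36A3 and SLC36A2 lie next to each other on chromosome 7 and all their 72 listed sites, over 88.7 kb from 62518997 to 62607726, were lower in MSG. SLC36A2 encodes a glycine and proline carrier. SLC36A3 (gene 62521906 to 62543906) had 46 such sites, 11 of them in the promoter. Its gene mean ran from 0% over 43.5% to 93.5% in MSG and from 51.3% over 92.4% to 94.6% in MRG, a difference of -34.6 points (SE 13.8, limma adjusted p = 0.114). SLC36A2, named here after its values were seen, stood at 46.2% ± 25.5 and 81.0% ± 17.1 (adjusted p = 0.103). In both genes the groups overlapped, because MSG replicate 2 was near the top of MRG. MSG replicate 5 was at exactly 0 at 66 of the 72 sites and was the sole cow at 0 at 64 of them. The third neighbour, SLC36A1, which carries amino acids out of lysosomes, did not share the pattern throughout, with 7 of 16 sites higher (gene mean 53.9% ± 24.8 in MSG and 63.1% ± 18.4 in MRG).

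Among carriers of family 6, SLC6A12, a betaine and GABA transporter (chromosome 5, 107148045 to 107161381), had all 12 sites higher, from 6.41% over 35.2% to 91.8% in MSG and from 1.52% over 5.20% to 8.18% in MRG. All MRG cows were low there and MSG cows were spread over the scale (difference 33.2 points, SE 12.7, adjusted p = 0.109). SLC6A4, the serotonin transporter also found on platelets, had 11 of 18 sites lower (55.0% ± 16.6 against 65.3% ± 14.5, adjusted p = 0.347). SLC1A7, a glutamate transporter, had 7 of 11 sites lower (56.8% ± 14.0 against 72.2% ± 5.51, adjusted p = 0.131).

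Peptide carriers were represented by 3 genes and 128 sites. SLC15A1, the proton-coupled carrier that takes up di- and tripeptides from the gut (chromosome 12), had 84 sites, 72 of them distal, with 37 higher and 47 lower. Its gene means were close, at 48.1% ± 2.35 in MSG and 50.3% ± 5.27 in MRG (limma adjusted p = 0.721). As in SLC36A4, sites of opposite direction were averaged: the higher sites stood at 69.5% ± 17.5 and 34.2% ± 14.4, the lower ones at 29.8% ± 18.5 and 66.1% ± 19.2. Listed sites were selected for their difference, so sorting them by direction gives such a gap in advance, and these averages carry no test. SLC15A5 had 16 of 41 sites higher and 35 sites inside the gene, at 54.5% ± 6.86 against 61.4% ± 5.35 (adjusted p = 0.314).

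Nucleoside carriers held 137 sites in 5 genes. None of the 5 gene means passed limma's adjusted test (lowest adjusted p = 0.0820), and all 5 had an unadjusted limma p under 0.05, beside 38% of all genes. By the exact permutation test, SLC28A3 (unadjusted p = 0.0152) and SLC29A4 (0.00866) were under 0.05, beside 31.7% of all genes. SLC28A1 and SLC29A3 (0.0563 each) and SLC29A2 (0.0519, on 2 complete sites) were not. Sites were mostly higher in 3 of the 5 genes and mostly lower in 2. SLC28A3, a sodium-coupled carrier of purine and pyrimidine nucleosides (chromosome 8, 77514711 to 77587255), had 55 of 64 sites higher, 61 of the 64 being distal. Its gene mean ran from 17.3% over 50.3% to 81.9% in MSG and from 13.8% over 16.4% to 48.5% in MRG (difference 30.1 points, SE 9.99, adjusted p = 0.103). The groups were not cleanly apart: MSG replicate 4 was low like most of MRG, and MRG replicate 1 stood with MSG. At 36 of the 63 sites with a cow at 0, the same 6 cows were at exactly 0, namely MSG replicate 4 and MRG replicates 2 to 6. The few sites that were not distal gave a difference of -33.3 points, opposite to the gene mean.

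SLC29A4, a carrier of monoamines and adenosine, differed the other way (chromosome 25, 38971637 to 38983187). All 23 of its sites were lower in MSG, from 0% over 4.64% to 8.28%, against 5.67% over 44.0% to 73.3% in MRG (difference -42.3 points, SE 10.1, limma adjusted p = 0.0820). Of the 23 sites, 4 lay inside the gene. A single MRG cow, replicate 1, fell within the range of MSG. At 11 of the 23 sites all 6 MSG cows and MRG replicate 1 were at exactly 0. SLC29A3, which moves nucleosides out of lysosomes, had 21 of 26 sites higher in MSG (82.7% ± 15.7 against 62.3% ± 15.3, limma adjusted p = 0.126), and 20 of its sites had no cow at 0, all of them higher. Of the 26 sites, 5 lay inside the gene.

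Sugar carriers held 149 sites in 19 genes, 61 higher and 88 lower. SLC2A12, a glucose transporter (chromosome 9, 72154875 to 72223315), had 48 sites, all inside the gene, 40 of them lower in MSG. Its gene mean ran from 16.6% over 17.3% to 49.0% in MSG and from 15.3% over 44.5% to 73.2% in MRG (difference -18.2 points, SE 10.2, adjusted p = 0.172). MSG cows other than replicate 4 were low together, and 2 of the MRG cows, replicates 3 and 5, were low with them. Those 7 cows were all at exactly 0 at 32 of the 47 sites with a cow at 0. The remaining site was higher in MSG by 29.0 points.

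Ion carriers gave no common direction. In the class of bicarbonate, chloride and cation-chloride carriers (17 genes) 107 of 202 sites were higher. This class includes the adaptor protein gene SLC4A1AP, placed there by its number, with all 7 sites lower. SLC12A2, the sodium-potassium-chloride cotransporter of secretory epithelia, had 44 of 48 sites higher, 38 of the 48 being distal, at 68.1% ± 14.5 in MSG and 41.1% ± 30.2 in MRG (limma adjusted p = 0.134). MRG replicates 2 and 6 were at exactly 0 at 43 of 48 sites each, while MRG replicate 5 stood at the level of MSG. SLC26A5, which encodes the motor protein prestin, had 7 of 18 sites higher (50.6% ± 9.17 against 57.5% ± 7.98, adjusted p = 0.362). The neighbouring chloride carriers SLC26A3 and SLC26A4 on chromosome 4, named after their values were seen, pointed apart: all 19 sites of SLC26A3 were higher (56.2% ± 22.2 against 20.8% ± 28.5) and 20 of 25 sites of SLC26A4 were lower (33.3% ± 12.1 against 58.7% ± 26.0). SLC4A1, the anion exchanger of red cells, had 3 sites (79.6% ± 19.6 against 83.0% ± 12.1, adjusted p = 0.771), and the urea transporter SLC14A1 had 2.

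Sodium-calcium exchangers had 52 of 81 sites higher in 6 genes. SLC24A4, a potassium-dependent sodium-calcium exchanger, had 29 of 45 sites higher (72.4% ± 12.5 against 64.1% ± 20.3, adjusted p = 0.472). SLC9A3, the sodium-proton exchanger of gut and kidney epithelium, had 22 of 26 sites lower, 23 of the 26 being distal and 22 with no cow at 0 (65.9% ± 23.4 against 83.4% ± 5.08, adjusted p = 0.167). All MRG cows of SLC9A3 were high and MSG cows were spread widely. Without its distal sites the difference was 44.8 points, opposite to the gene mean.

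Mitochondrial carriers (family 25) had 96 of 212 sites higher. Most sites were higher in 5 of the 19 genes and lower in 14. None of the 17 testable gene means passed limma's test. SLC25A13, the aspartate-glutamate carrier citrin (chromosome 4, 13463620 to 13647253), had 37 of 56 sites lower, at 65.5% ± 16.3 in MSG and 74.2% ± 10.5 in MRG (adjusted p = 0.379). SLC25A21, a carrier of oxodicarboxylates, had 8 of 18 sites higher (44.8% ± 5.14 against 47.1% ± 9.22, adjusted p = 0.760). Zinc carriers (11 genes) had 47 of 86 sites higher. SLC40A1, the iron exporter ferroportin, had just 2 sites, 1 in each direction.

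Other carriers included the gene with the lowest p among members. SLC22A18, of the organic cation family and in an imprinted cluster in human and mouse, had 8 sites, all distal, within 4.56 kb of chromosome 29 (48715834 to 48720397), and all higher. Its mean ran from 51.6% over 93.6% to 98.8% in MSG and from 26.8% over 42.3% to 55.4% in MRG, so that MSG replicate 6 alone overlapped MRG (difference 44.4 points, SE 8.51, limma adjusted p = 0.0799). Without that cow the difference was 51.5 points and the adjusted p 0.00798. SLC33A1, which imports acetyl-CoA into the endoplasmic reticulum, rested on 1 complete site (97.5% ± 3.91 against 60.8% ± 27.7, adjusted p = 0.0991). The gene was named for that site, which was chosen because the groups did not overlap there, so these values are a description. The monocarboxylate carrier SLC16A6 had 31 of 32 sites higher, 6 of the 32 being inside the gene (77.1% ± 21.6 against 48.6% ± 30.4, limma adjusted p = 0.141). The fatty acid transporter SLC27A1 had 12 of 13 higher (65.8% ± 31.4 against 40.3% ± 28.1, adjusted p = 0.195). SLC18A3, which loads acetylcholine into vesicles, had 3 of 4 sites lower (36.9% ± 26.4 against 65.7% ± 17.9, adjusted p = 0.120).

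The 12 tiles gave 6 higher and 6 lower in MSG. Limma's test passed 4 of them (3 higher, 1 lower), beside 73.3% of all listed tiles (41.6% higher, 31.6% lower), and 10 had an unadjusted p under 0.05 beside 83.5%. The groups' cows overlapped in every carrier tile, whereas 6.03% of all listed tiles had no overlap. The share of carrier tiles that passed (33.3%) was below that of the whole table, on 12 tiles of which 5 and 3 lie close together near SLC36A3 and SLC36A4.

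Higher tiles that passed lay near SLC36A4, SLC25A13 and SLC15A5. The tile on chromosome 29 (1679001 to 1679500, intergenic, 22.1 kb upstream of SLC36A4) ran from 52.2% over 77.9% to 85.9% in MSG and from 11.9% over 49.3% to 75.6% in MRG (difference 28.3 points, SE 11.1, limma adjusted p = 0.0379). The tile that overlaps it downstream did not pass (adjusted p = 0.0560), and the tile that abuts the first on its other side (1678501 to 1679000) was lower in MSG, at 25.9% ± 14.9 against 55.3% ± 29.5 (n = 5 each, adjusted p = 0.0515). The direction of methylation thus switched within 1 kb near SLC36A4. The intergenic tile on chromosome 4 (13699001 to 13699500) lies 6.81 kb upstream of the start of a longer SLC25A13 model (13462646 to 13692192), 1 of 3 listed for the gene. It ran from 28.2% over 55.4% to 87.5% in MSG and from 0% over 37.3% to 53.2% in MRG (difference 29.2 points, SE 12.3, adjusted p = 0.0443). An intronic tile of SLC15A5 (intron 6 of 8, chromosome 5, 93656251 to 93656750) ran from 49.7% over 57.6% to 89.0% in MSG and from 12.2% over 24.04% to 80% in MRG (difference 29.0 points, SE 11.9, adjusted p = 0.0411). There MRG replicate 4, at 80%, was as high as the upper MSG cows.

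All 5 tiles of SLC36A3 were lower in MSG, by 22.7 to 27.7 points, with limma adjusted p from 0.0477 to 0.0569. The one that passed (chromosome 7, 62538751 to 62539250) covers the start of the shorter of its 2 listed models (62521906 to 62538826) and lies inside the longer one. It ran from 23.1% over 55.8% to 80.6% in MSG and from 58.9% over 82.3% to 86.6% in MRG (difference -22.7 points, SE 9.92, adjusted p = 0.0477). As at the single sites, MSG replicate 2 was as high as MRG and MSG replicate 5 was the lowest cow. The 2 remaining tiles, 33.3 kb from the start of SLC40A1 (29.2% ± 31.2 against 7.38% ± 9.10) and in an intron of another gene model 8.47 kb from the start of SLC25A21 (40.8% ± 25.8 in 5 MSG cows against 17.6% ± 25.01 in 5 MRG cows), did not pass (adjusted p = 0.0934 and 0.117).

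The number of carrier tiles that passed varied with single cows. It was 0 when MSG replicate 1, 3 or 6 was left out and 0 when MRG replicate 1 or 2 was. Leaving out replicate 5 of either group gave 2, and leaving out MSG replicate 4 gave 7. The other 4 cows gave 3 to 5. Over all 1227 listed tiles the count that passed varied as well in these fits, from 397 to 797. The exact permutation test passed 0 of the 12 carrier tiles (lowest adjusted p = 0.0521), beside 13.8% of all listed tiles.

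**Figure D3:**
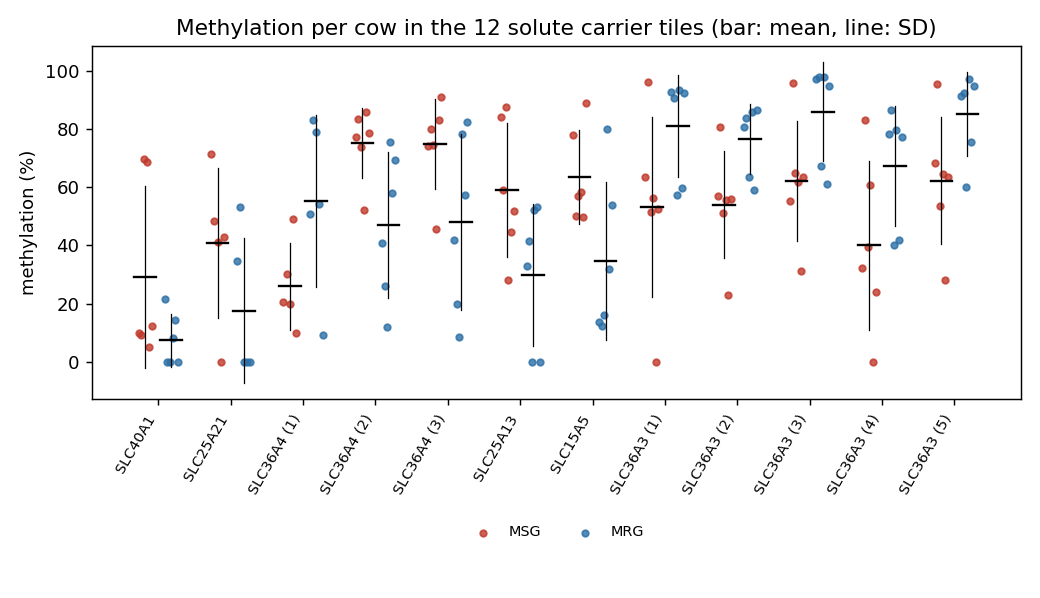
Methylation (y axis, percent) in the 12 solute carrier tiles (x axis, numbered within a gene in chromosome order), 1 point per cow, MSG in red and MRG in blue, with the mean (horizontal bar) and SD (vertical line, n = 5 or 6 per group). In the 5 SLC36A3 tiles MSG lies lower by 22.7 to 27.7 points, and the cows of both groups overlap in each of the 12 tiles.

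Promoter sites were listed for 65 carrier genes. Of the 19 genes with at least 3, all promoter sites were higher in MSG in 8 and lower in 4. The same count over all genes is not given here. By site the lean was the other way, with 64 of 150 carrier promoter sites higher (42.7%, all listed promoter sites 54.4%). SLC6A12 had most of the higher ones, with 7 sites between 651 and 2869 bases from a start, running from 0% over 22.4% to 93.0% in MSG and from 0% over 0% to 1.59% in MRG. MRG was near 0 throughout and MSG was divided. SLC16A6 (5 sites, 78.0% ± 39.0 against 44.3% ± 40.03), SLC27A1 (5 sites, 74.9% ± 37.4 against 44.6% ± 32.4) and SLC12A2 (3 sites, 57.2% ± 19.9 against 17.4% ± 27.6) followed. SLC36A3 had 11 lower promoter sites, from 0% over 48.6% to 93.5% in MSG and from 51.9% over 91.9% to 94.6% in MRG. At SLC25A13 4 promoter sites, none with a cow at 0, stood at 67.8% ± 32.1 against 96.5% ± 2.38. At SLC29A4 4 promoter sites were close to 0 in all MSG cows (at most 1.79%) and averaged 43.0% ± 28.0 in MRG, where replicate values ran from 0% to 86.5%. SLC26A5 had 3 (41.3% ± 19.7 against 76.7% ± 16.8). Except at SLC25A13 and SLC26A5, every one of these promoter sites had a cow at exactly 0.

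At 31 carrier sites (1.58%) the cows of the groups did not overlap, 19 higher and 12 lower in MSG, beside 2.36% of all listed sites. Of these, 19 had no cow at 0 (11 higher, 8 lower). Sites named here were chosen for their lack of overlap, so their values are a description with no test. Of those 19, and taking 1 site per gene, the largest difference of means upward was in the first of 16 introns of a transcript 44.5 kb upstream of SLC29A3 (chromosome 28, 27409044), from 56.3% over 85.0% to 100% in MSG and from 15.4% over 35.5% to 36.8% in MRG. It was followed by sites near SLC22A18 (chromosome 29, 48720396, 90.6% ± 11.2 against 41.9% ± 12.03), SLC33A1 (97.5% ± 3.91 against 60.8% ± 27.7) and SLC18A3 (72.8% ± 8.01 in 5 cows against 36.7% ± 6.23). MRG cows tended to intermediate values at these sites and MSG cows to high ones.

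Downward, the largest difference was in intron 2 of SLC25A13 (chromosome 4, 13641697), from 33.3% over 44.4% to 57.1% in 5 MSG cows and from 90.9% over 96.9% to 100% in MRG. Both groups were tight there. Sites in an intron of SLC1A7 (55.5% ± 28.1 against 96.3% ± 4.04), near SLC9A3 (57.8% ± 22.9 against 97.7% ± 3.69), near SLC15A1 (36.8% ± 17.0 in 5 cows against 76.2% ± 17.3) and in an intron assigned to SLC6A4 (61.5% ± 25.6 against 97.3% ± 3.01) came next. In 4 of these 5 the MRG cows were all above 90%.

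Cow values at carrier sites clustered at the ends and in the middle of the scale. Exactly 0 made up 20.8% of the 23143 values, exactly 100 made up 19.5%, and values above 0 but under 20 made up 1.91%. Within the scale the fullest bin of 10 points was 40 to 50. All listed sites had a like distribution (21.7% at 0, 17.0% at 100 and 2.06% in between 0 and 20). At 1542 carrier sites (78.6%) at least 1 cow was at exactly 0, beside 78.3% of all listed sites. The share of carrier sites at 0 ran from 17.6% to 23.5% among MSG cows and from 16.0% to 25.4% among MRG cows, so the ranges overlapped.

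**Figure D4:**
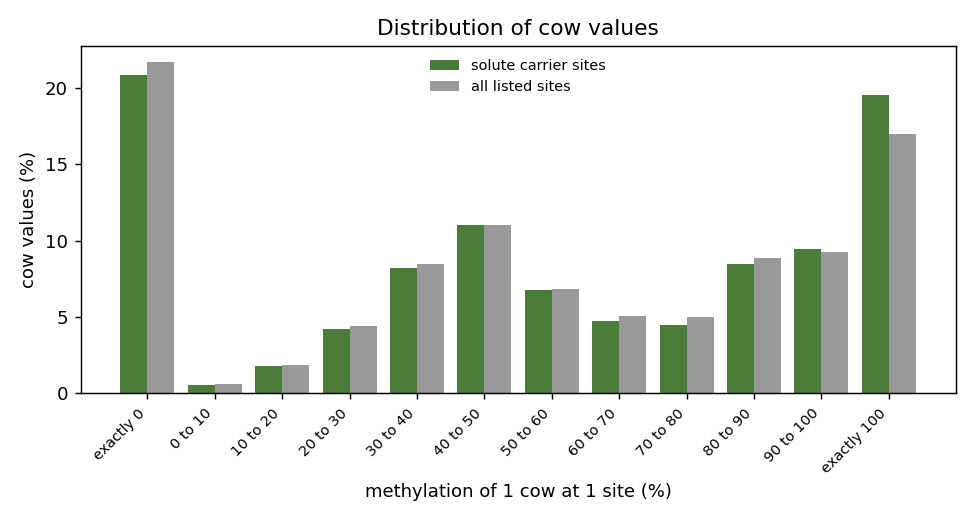
Share of cow values (y axis, percent) by methylation level of 1 cow at 1 site (x axis, bins of 10 points with exactly 0 and exactly 100 apart), for solute carrier sites in green and all listed sites in grey. Both have peaks at exactly 0 (20.8% and 21.7%), at 40 to 50 and at exactly 100.

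Zeros recurred in the same cows along a gene. Of the 48 carrier genes with 10 or more sites with a cow at 0, 25 had an identical set of cows at 0 in at least 50% of those sites. The map of values per cow and site shows long stretches in which a cow kept near 0, near the middle or near 100 from site to site. Over all 46 sites of SLC36A3, MSG replicate 5 averaged 0%, MSG replicates 1, 3, 4 and 6 averaged 44.1% to 48.4%, and MSG replicate 2 averaged 93.4%. MRG replicates 3 and 5 averaged 53.8% and 50.9% there, and the other MRG cows 92.0% to 94.2%. The groups thus differed in how many cows stood at each of these levels.

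**Figure D5:**
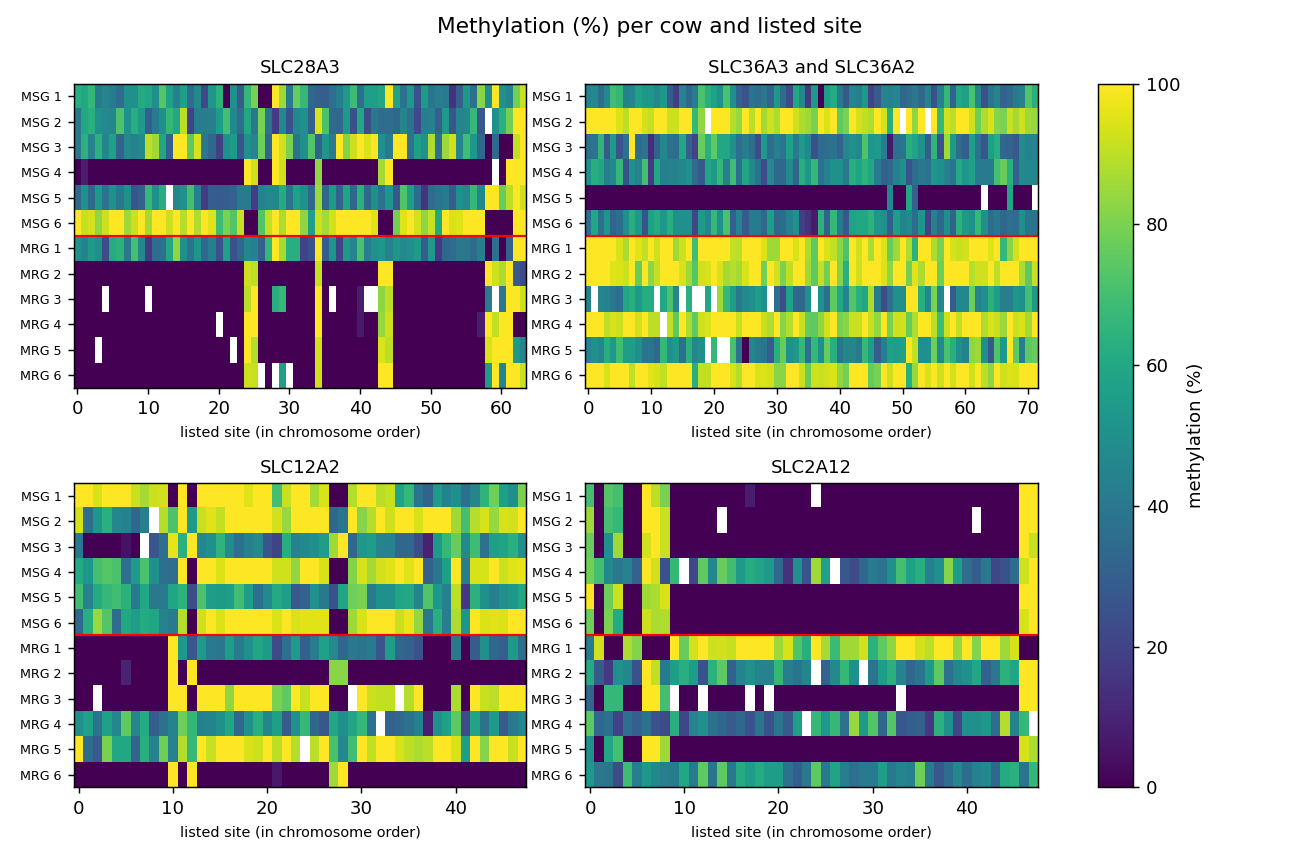
Methylation (colour, percent) of each cow (y axis, MSG above and MRG below the red line) at each listed site in chromosome order (x axis) for SLC28A3, SLC36A3 with SLC36A2, SLC12A2 and SLC2A12, with missing values in white. MSG replicate 5 is at 0 at 66 of the 72 SLC36A3 and SLC36A2 sites, and the same cows are near 0 together over long stretches of the other genes.

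Both strands were listed at 421 carrier CpGs, and in all 421 they pointed the same way. The median difference between the strands of a CpG within a cow was 5.56 points. Of 1213 cow values at 0 on the plus strand, 1194 (98.4%) were at 0 on the minus strand too, beside 0.542% of those above 0. Over all listed CpGs the first share was 98.3%. Enzymatic conversion reads a thymine in a cow's own genome as an unmethylated cytosine, and the part that sequence variants have in these values was not tested.

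When sites with a cow at exactly 0 were left out, the counts changed. Limma then passed 313 of 421 carrier sites (74.3%, 153 higher and 160 lower), beside 73.1% of all such sites. It passed 51 of 90 gene means (56.7%, 26 higher and 25 lower), beside 48.9% of all such genes, and 7 of 7 tiles, beside 93.3%. The carrier counts lie near those of the whole table. Of the 11 carrier genes with 10 or more such sites, 4 had all of them higher (SLC29A3 20, SLC36A4 15, SLC30A5 14, SLC16A6 12) and 2 had all lower (SLC9A3 22, SLC25A13 16). The other 5 were split: SLC15A1 had 14 higher and 15 lower, SLC15A5 4 and 15, SLC46A2 13 and 3, SLC2A9 5 and 11, and SLC25A26 11 and 4.

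Carriers were also grouped by known site of action. Of 20 carriers of immune cells 9 had listed sites, with 63 of 96 higher. None of the 9 gene means passed limma's adjusted test and 3 had an unadjusted p under 0.05 (all genes 38%). SLC29A3 and SLC46A2, known as the thymic stromal cotransporter (15 of 18 sites higher, 85.5% ± 4.06 against 66.9% ± 26.5, limma adjusted p = 0.176), had most listed sites of this list (26 and 18). Of these, 5 of the SLC29A3 sites and 0 of the SLC46A2 sites lay inside the gene. Of 19 mammary carriers 8 had sites, 65 higher and 66 lower. Most of these sites were in SLC12A2 (44 of 48 higher) and SLC2A12 (40 of 48 lower). Counted by gene the list was less even, with 3 genes mostly higher and 5 mostly lower. The median gene difference was -19.97 points, against 3.61 for all genes. None of the 8 gene means passed limma's adjusted test and 1 had an unadjusted p under 0.05. Of 12 red-cell carriers 4 had sites, 2 higher and 6 lower.

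Transporters outside these families were counted the same way. Of the organic anion polypeptides (SLCO genes) 7 of 10 had sites, 222 of 325 higher, and 5 of the 7 gene means had an unadjusted p under 0.05 in limma (all genes 38%) with none passing after adjustment. Of 40 ABC transporters 25 had sites (108 of 261 higher), of 34 ATP-driven ion pumps 18 (63 of 143 higher), and of 12 aquaporins 7 (13 of 24 higher). The median gene difference was 16.9 points for SLCO genes, -2.19 for ABC transporters, -8.53 for pumps and -2.47 for aquaporins, against 0.726 for the solute carriers and 3.61 for all genes. Markers of blood cells with listed sites numbered 5 of 8 for T cells (22 of 46 sites higher), 4 of 6 for B cells (5 of 8), 1 of 4 for monocytes (3 of 17), 1 of 6 for neutrophils (9 of 10) and 3 of 4 for NK cells (13 of 18). None of these marker genes passed limma's adjusted test of gene means, which only 1 of 11074 genes passed (0.00903%), so this says little. An unadjusted limma p under 0.05 was reached by 2 of 5 T cell, 1 of 4 B cell and 1 of 1 monocyte markers. It was reached by 0 of 1 neutrophil and 1 of 3 NK cell markers (all genes 38%). The part of cell composition in the carrier values was not tested.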

How the data were processed

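The members and gene lists were chosen with earlier results of these data known. Per the submitters' processing notes, fastp 0.23.1, Bismark, DRAGEN and ChIPseeker 1.32.1 were used with build ARS-UCD1.2. No source used here names the differential test. Per the file headers, the authors deposited percent methylation per cow with their difference in points and their p-value and q-value. All coordinates and gene assignments are the authors'. Among the columns for tiles, 36 with read numbers had names that fit no cow and were not used, so depth, and an interval for it, is not given.

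Limma 3.58.1 in R 4.3.3 compared MSG with MRG on percent values, 1 per cow, no covariate, two-sided, in 3 fits: all 196275 sites, all 1227 tiles, and means over the complete sites of 11074 gene symbols. Benjamini-Hochberg adjustment ran over each whole fit (threshold 0.05). Nothing in the labels says whether blood was handled in batches, and replicate numbers (accession order) pair no cows. Differences are MSG minus MRG over cow means. The exact permutation test used all 924 regroupings (smallest p 0.00216).

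Named genes were those with a tile, the 10 with most sites, up to 4 per direction with 3 or more promoter sites of a single direction, 5 per direction with the widest non-overlapping site without a cow at 0, and 2 per carrier list. One result is not reported here. The names table is of assembly ARS-UCD2.0 and held 187 of the 188 symbols. Alternatives were another test, scale and threshold, missing cows, zeros, distal sites, genes with few sites, and leaving out each cow.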

Additional observations from a re-analysis of the deposited data

Results flagged for a closer look

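Single cows standing apart from the other cows of their group were looked for in 78 groups of cow values (12 tiles and 27 gene means, 2 groups each), by the gap to the nearest cow divided by the range of the group, set against Dixon's 95% critical value. The gap was past it in 8 groups. That limit is passed in about 1 in 20 groups only where values are independent and normally distributed. Cow values here clustered at certain levels, and some groups share sequence, such as the overlapping SLC36A4 tiles. The count of 8 therefore cannot be set against that rate. MSG replicate 4 was low in the overlapping SLC36A4 tiles that start at 1679001 (52.2%, the other MSG cows 73.8% to 85.9%) and at 1679251 (45.8%, the others 74.4% to 91.0%). It was also high in the gene mean of SLC2A12 (49.0%, the others 16.6% to 18.2%). For SLC15A5 MSG replicate 1 was high (68.4%, the others 50.7% to 53.8%) and MRG replicate 4 low (50.8%, the others 61.8% to 65.5%). MSG replicate 6 was low at SLC22A18 (51.6%, the others 89.2% to 98.8%). MRG replicate 1 was high at SLC28A3 (48.5%, the others 13.8% to 17.4%) and at SLC29A3 (92.9%, the others 50.2% to 60.3%).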

How the results depend on the processing

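The count of carrier tiles passing limma's test (4) was 0 by the exact permutation test and at a threshold of 0.01, 7 without tiles with a cow at exactly 0, 3 on the arcsine scale, 5 with complete rows only, and 0 to 7 without 1 cow. The count of sites (0) was 313 without sites with a cow at 0 and 0 to 2 without 1 cow. The count of genes (0) was 51 without such sites and 0 to 1 without 1 cow; sites and genes stayed at 0 under the other settings run. The percentage of carrier sites with higher methylation in MSG (52.3%) was 49.6% without sites with a cow at 0 (all listed sites 57.3%), 49.7% without distal sites (52.7%), 48.9% with 1 vote per gene (other genes 54.3%) and 51.1% (53.0%) with 1 vote per run of sites closer than 1 kb. Differences of gene means changed sign without sites with a cow at 0 for SLC15A1 (2.36 points), SLC24A4 (-27.8), SLC28A3 (-26.6) and SLC2A12 (29.0). Only 1 such site was left for SLC28A3, 1 for SLC2A12 and at most 6 for SLC24A4, and each listed site was selected for its difference. They changed sign without distal sites for SLC24A4 (-5.59), SLC28A3 (-33.3) and SLC9A3 (44.8). Without 1 cow the difference changed sign for SLC40A1 (-1.20 without MSG replicate 2, range -1.20 to 12.5) and SLC4A1 (1.23 without MSG replicate 1 and 0.00811 without MRG replicate 1, range -7.47 to 1.23). The cause was not tested. Without sites with a cow at 0, 14 other named genes passed the threshold in the same direction and 3 did not pass; 48.9% of all genes passed in that setting, and some genes were named for such a site. No paired analysis was possible because the replicate numbers follow accession order and pair no cows.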
